A study of Mus musculus with 32 samples.

Results

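The acetylcholine receptor (AChR) of skeletal muscle is built from subunits encoded by 5 genes, Chrna1 (alpha1), Chrnb1 (beta1), Chrnd (delta), Chrne (epsilon) and Chrng (gamma). These 5 genes were taken by symbol from the 24952 genes measured, and all 5 were found. All passed the filter on reads that was set over all libraries together. RNA came from laser-captured regions of the tibialis anterior (TA) muscle of male, wild-type C57BL/6JRj mice that were housed 1 to a cage and given AIN93M diet, for 2 to 3 months in the mice aged 10 months and for 16 months in those aged 30 months. At each age, neuromuscular junction regions (NMJ) were compared with regions of the same muscle away from the junction (xNMJ), which gave 4 groups of 8 libraries, named by age and region (10m NMJ and 10m xNMJ; 30m NMJ and 30m xNMJ). NMJ regions had been found under the microscope with fluorescent α-bungarotoxin, a snake toxin that binds the receptor itself, so the receptor protein, though not its mRNA, was used to choose them. Each library pooled many captured regions, and each captured region holds a slice of fibre together with whatever other cells lie in it. The sources used here do not say which libraries came from the same animal, so p-values measure the spread between these libraries. Total counts ranged from 4026648 to 16516788 per library, and the median library held 9605869 counts in 10m NMJ and 9825357 in 30m NMJ, against 6062117 and 6790011 in the xNMJ groups of these ages.

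The muscle receptor is a ring of subunits around an ion channel that opens when acetylcholine from the motor nerve binds. Its alpha1, beta1 and delta subunits are shared by a fetal and an adult form, and the gamma subunit of the fetal form is replaced by epsilon in the adult form after birth. In an innervated fibre the nuclei under the nerve ending transcribe the subunit genes while the other nuclei are kept silent by electrical activity, and loss of the nerve is known to bring back subunit transcription, including gamma, along the fibre.

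One library stood apart from its group. The library labelled 30m xNMJ replicate 5 held 1062 counts of Chrne, whereas the other 7 libraries of its group held 0 or 1. It also held 1829 counts of Chrna1, against 43 to 184 in the other 7, and 80 counts of Chrnd, against 0 to 14. It had the highest total of any xNMJ library, 13182475 counts, and the longest insert, 130 nt, where the other xNMJ libraries had 79 to 109 nt. Its level of Lrp4, 616 CPM (counts scaled to the library total), was the lowest of its group, which had a median of 4187 CPM. Its summed level of 4 Schwann cell genes, 17.4 CPM, was the highest of its group, whose other libraries reached at most 3.61 CPM, and so was its summed level of 3 genes of fibro-adipogenic progenitors, 209.5 CPM. The part of these measures in its subunit counts was not tested.

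The promoters are shown because subunit genes are classically described as controlled through a pair of short motifs, the E-box CANNTG, bound by myogenic factors, and the N-box CCGGAA, bound by ETS factors. The sequences below are from RefSeq on GRCm38.p6, 5′ to 3′ on the strand of the gene, and stop at the first annotated exon. Capitals mark an E-box or N-box found on either strand, and none overlapped another.
Chrna1, chr2:73580339-73580588, minus strand: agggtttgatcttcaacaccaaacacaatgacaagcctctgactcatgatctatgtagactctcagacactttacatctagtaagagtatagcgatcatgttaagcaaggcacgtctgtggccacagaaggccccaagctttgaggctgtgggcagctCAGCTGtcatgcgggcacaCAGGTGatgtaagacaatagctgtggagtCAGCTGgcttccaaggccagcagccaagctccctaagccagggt
Chrne, chr11:70619217-70619444, minus strand: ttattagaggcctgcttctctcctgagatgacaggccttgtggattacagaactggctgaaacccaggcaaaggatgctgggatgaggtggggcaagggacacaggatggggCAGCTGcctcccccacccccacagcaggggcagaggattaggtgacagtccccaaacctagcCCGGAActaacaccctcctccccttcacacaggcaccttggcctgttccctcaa
Chrng, chr1:87205561-87205809, plus strand: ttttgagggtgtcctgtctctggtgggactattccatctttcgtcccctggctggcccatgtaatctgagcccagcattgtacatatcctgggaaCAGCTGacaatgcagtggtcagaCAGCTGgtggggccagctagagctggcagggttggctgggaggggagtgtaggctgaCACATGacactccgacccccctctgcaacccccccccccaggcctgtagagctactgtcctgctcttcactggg
Positions are counted back from the RefSeq start of transcription, and the RefSeq start of Chrng lies within the gene as GENCODE draws it. The Chrna1 window held 3 E-boxes, at -92, -73 and -44. The Chrng window also held 3, at -155, -132 and -75. The Chrne window held 1 E-box at -138 and was the single one of the 4 windows searched that held an N-box, at -76. The 124 bases available for Chrnb1 held 3 E-boxes. Among 32851 promoter windows of 250 bases, 66.2% held an E-box, 31.8% held 2 or more and 12% held an N-box, so these matches are descriptions of the sequence and not evidence of binding. The genes lie on GRCm38 at chr2:73563215-73580338 (Chrna1, minus strand), chr11:69784036-69795943 (Chrnb1, minus), chr1:87190607-87200070 (Chrnd, plus), chr11:70614883-70619216 (Chrne, minus) and chr1:87204657-87212694 (Chrng, plus), so Chrnd and Chrng are close neighbours on chromosome 1.

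**Figure D1:**
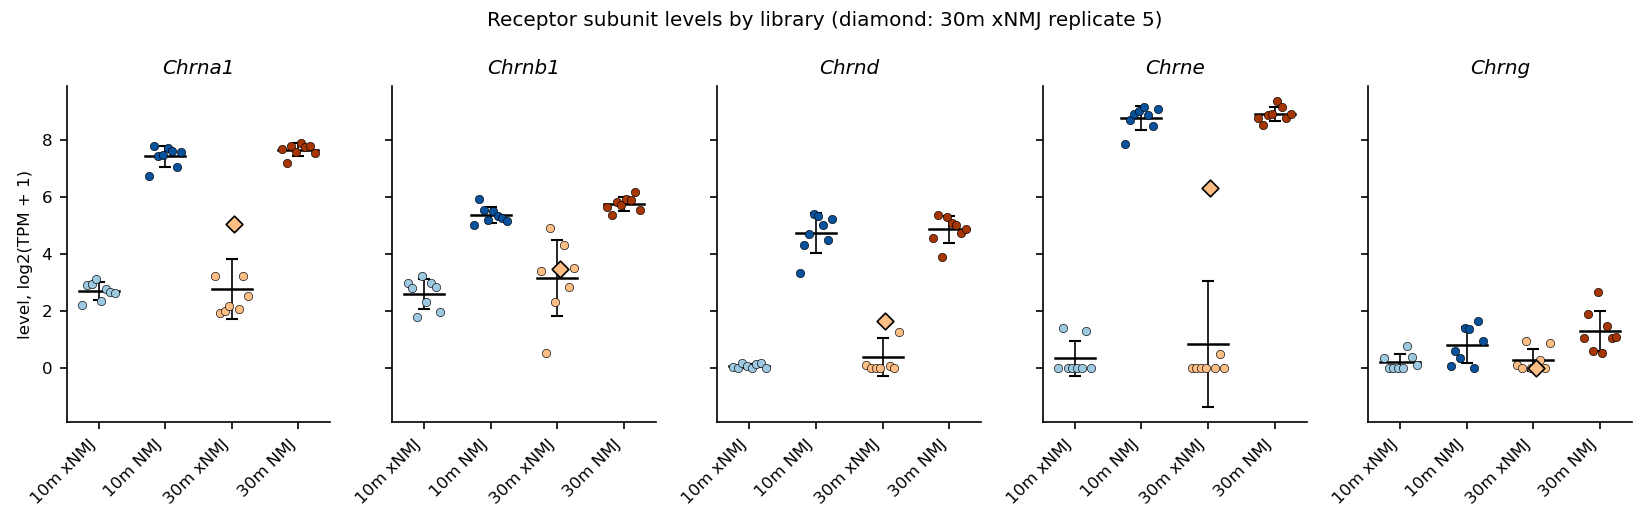
Level of each subunit, log2(TPM + 1), in every library of the 4 groups, 1 panel per subunit. Points are libraries, bars are the mean ± SD of 8 libraries, and the diamond is 30m xNMJ replicate 5. Chrne in that library sits at 6.31, next to a highest value of 0.47 in the rest of its group.

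Levels are given first, in TPM, a unit that the authors scaled for transcript length and library total. The alpha1 subunit, Chrna1, carries most of the acetylcholine binding site. Its TPM ran from 3.64 to 7.70 with a median of 5.52 in 10m xNMJ and from 105 to 220.5 with a median of 181 in 10m NMJ. At 30 months it ran from 2.77 to 32.1 with a median of 4.09 in xNMJ and from 145 to 238 with a median of 208 in NMJ. Every NMJ library was above every xNMJ library of its age, and the value of 32.1 TPM belonged to replicate 5. Chrna1 was thus low but counted in every xNMJ library, with 1117 counts over the 8 libraries at 10 months.

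Chrnb1 encodes the structural beta1 subunit. In 10m xNMJ it had between 2.41 and 8.26 TPM with a median of 6.05. In 10m NMJ it had between 31.2 and 58.9 TPM with a median of 37.8. In 30m xNMJ it was widely spread, from 0.43 to 28.6 TPM with a median of 9.78, and in 30m NMJ it lay between 39.7 and 70.0 TPM with a median of 53.3. The regions did not overlap at either age in TPM, but at 30 months they did overlap in log2 CPM with TMM factors, the scale of the test below. The spread in 30m xNMJ did not come from replicate 5 alone, since replicate 3 held 339 counts, replicate 5 held 276 and replicate 2 held 6.

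Chrnd encodes the delta subunit, which forms a binding site with alpha1. It was almost silent away from the junction, with 0 to 0.122 TPM in 10m xNMJ, or 6 counts over 8 libraries, and 0 to 2.10 TPM in 30m xNMJ, where replicate 5 gave 80 of the 95 counts. In NMJ it ran from 9.07 to 41.5 TPM with a median of 28.0 at 10 months and from 13.8 to 39.7 TPM with a median of 30.0 at 30 months. The regions did not overlap at either age.

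Chrne encodes the epsilon subunit of the adult receptor and showed the highest TPM of the 5 genes in the NMJ groups. In 10m NMJ it ran from 231 to 564 TPM with a median of 470.3, and in 30m NMJ from 362 to 651 TPM with a median of 467. In 10m xNMJ 6 of 8 libraries held 0 counts and the others held 5 and 9, and in 30m xNMJ 6 of 8 held 0, 1 held 1 and replicate 5 held 1062, or 78.45 TPM. A floor of 3 counts corresponds to 0.182 to 0.745 CPM in these libraries, so Chrne was at or under the limit of detection in nearly all xNMJ libraries, and counts of 0 do not show that it was absent.

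Chrng encodes the gamma subunit of the fetal receptor and was the least abundant in NMJ. Its TPM ran from 0 to 2.09 with a median of 0.70 in 10m NMJ and from 0.45 to 5.35 with a median of 1.11 in 30m NMJ. In xNMJ it ran from 0 to 0.71 TPM at 10 months and from 0 to 0.90 TPM at 30 months, with 14 and 16 counts over 8 libraries. The NMJ and xNMJ libraries overlapped at both ages. The highest count, 130, was in 30m NMJ replicate 4, and 10m NMJ replicate 6 held 0.

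The first comparison asks which subunit mRNAs were more abundant at the junction than elsewhere in the same muscle. Of the 5 subunit genes, 4 were higher in NMJ at both ages, all but Chrng, in edgeR's quasi-likelihood test with Benjamini-Hochberg adjustment over 13990 genes at a threshold of 0.05, where 6.50% of all genes tested were called higher at 10 months and 5.0% at 30 months. On the log2 CPM scale the lowest NMJ library was above the highest xNMJ library for 4 of 5 subunits at 10 months, against 2.22% of all genes, and for 3 of 5 at 30 months, against 1.97%. The median log2 fold change of the 5 was 4.47 at 10 months and 3.94 at 30 months, beside 0.003 and -0.014 over all genes tested. Chrnd, Chrne and Chrng passed the filter on reads only through their NMJ libraries.

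At 10 months Chrna1 rose by a log2 fold change of 4.47 ± 0.43 (SE of the fit; edgeR adjusted p = 4.74e-09). Chrnb1 rose less, by 2.52 ± 0.41 (edgeR adjusted p = 3.95e-05). On another scale, without the TMM factors of the fit, the ratio of pooled counts per library total was 31.3 for Chrna1 and 7.55 for Chrnb1. The largest changes were those of Chrnd and Chrne, and their size rests on few counts in xNMJ. Chrnd rose by 8.64 ± 0.90 (edgeR adjusted p = 2.59e-08), and its pooled ratio on that scale, 672, has a 95% counting interval of 308.5 to 1831. In xNMJ Chrnd had 6 counts in all, 3 of them in replicate 7, without which the log2 fold change was 9.21. Chrne rose by 9.72 ± 1.34 (edgeR adjusted p = 3.76e-06), with a pooled ratio of 1309 and an interval of 780 to 2394, since xNMJ gave 14 counts in all, 9 of them in replicate 7, without which the log2 fold change was 10.74. Such intervals and floors cover counting error only.

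The log2 fold change of Chrng was 2.33 ± 1.02 at 10 months (edgeR adjusted p = 0.153) and 2.66 ± 1.02 at 30 months (edgeR adjusted p = 0.104), so the fetal subunit did not pass the test at either age. Its pooled counts were 9.72 times higher in 10m NMJ than in 10m xNMJ per library total, with an interval of 5.67 to 18.1. The call for Chrng depended on single libraries and on scaling. It passed at 10 months without 10m xNMJ replicate 6 (log2 fold change 3.27, edgeR adjusted p = 0.0492; 6.44% of genes called higher in that fit) and at 30 months without 30m xNMJ replicate 8 (3.52, edgeR adjusted p = 0.0383; 4.75%). At 30 months it also passed with library totals in place of TMM factors (3.23, edgeR adjusted p = 0.0288), where 19.2% of all genes were called higher.

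At 30 months the size of the fold changes depended on 1 library. With all libraries Chrna1 rose by 3.94 ± 0.42 (edgeR adjusted p = 7.63e-08) and Chrnb1 by 1.72 ± 0.39 (edgeR adjusted p = 0.00317). Chrnd rose by 5.15 ± 0.70 (edgeR adjusted p = 4.28e-06) and Chrne by 4.51 ± 0.97 (edgeR adjusted p = 0.00184). Without 30m xNMJ replicate 5, where 6.00% of all genes were called higher, Chrne rose by 12.65 ± 0.68 (edgeR adjusted p = 5.14e-15), although this fitted value rests on a single count in the 7 remaining xNMJ libraries. In the same fit Chrnd rose by 6.79 ± 0.69 (edgeR adjusted p = 1.27e-08) and Chrna1 by 4.86 ± 0.28 (edgeR adjusted p = 1.56e-14), whereas Chrnb1 stayed close to its first value at 1.73 ± 0.42 (edgeR adjusted p = 0.0044). A captured region mixes fibre with other cells. The RNA level within the fibre and the make-up of the captured region therefore cannot be told apart in any of these differences.

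**Figure D2:**
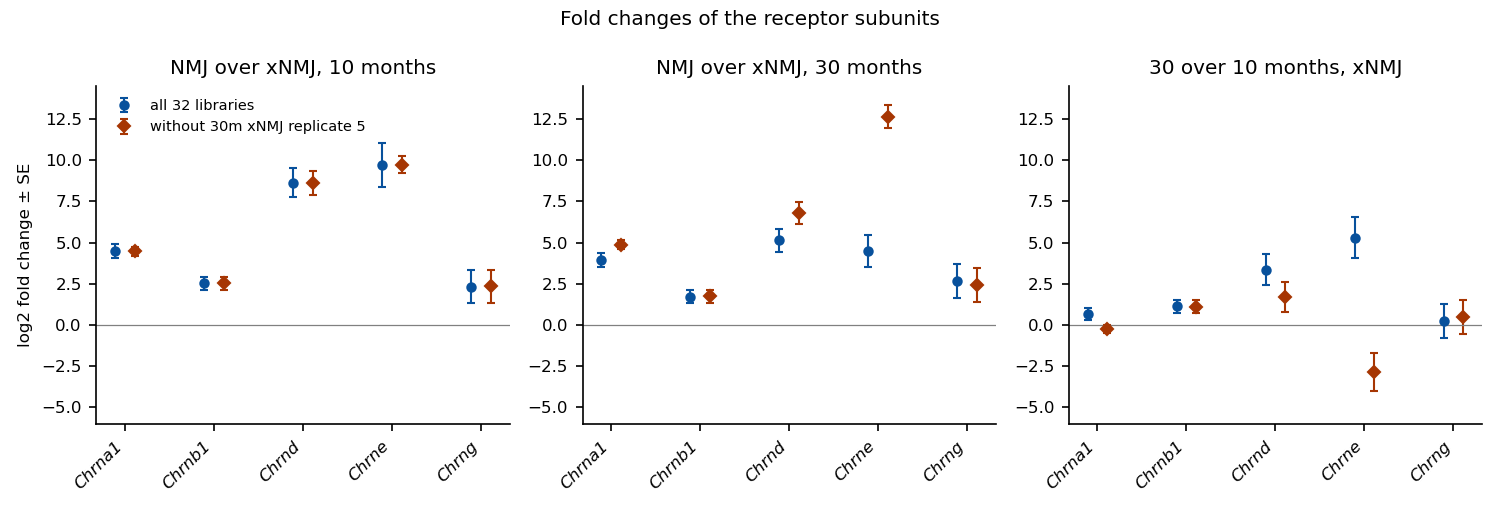
Log2 fold change ± SE of each subunit in edgeR for NMJ over xNMJ at 10 months, for the same at 30 months and for 30 over 10 months in xNMJ. Circles use all libraries and diamonds leave out 30m xNMJ replicate 5. For Chrne the 30-month value moves from 4.51 to 12.65.

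The second comparison asks whether subunit mRNA changed with age. In NMJ each log2 fold change between ages was smaller in size than its SE. The log2 fold change of 30 over 10 months was 0.13 ± 0.37 for Chrna1, 0.32 ± 0.38 for Chrnb1, -0.13 ± 0.57 for Chrnd, 0.07 ± 0.83 for Chrne and 0.57 ± 0.92 for Chrng. None of the 5 was called, and neither was any other gene, so that 0% of genes were called by edgeR and by DESeq2, while 372 of 13990 genes had an unadjusted edgeR p under 0.05. The SE of Chrne and Chrng are large beside these values, so a lack of change was not shown. The fit shares its spread over all 4 groups, and the SE of Chrne was 0.32 without 30m xNMJ replicate 5 and 0.23 in a fit of the NMJ groups alone, with log2 fold changes of 0.07 and 0.06. For Chrng the SE was then 0.89 and 0.74. Chrng itself was at -0.012 without 30m NMJ replicate 4 and at 1.73 with counts thinned to the smallest library. With insert size as a covariate Chrne was at -0.36.

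In xNMJ, where 0.0429% of all genes (6 genes) were called for age by edgeR, none of the 5 subunits was. Chrnd, Chrne and Chrng had more than 3 counts in at most 2 of 8 libraries of each xNMJ group. Their tests for age in xNMJ thus rest on few libraries. The log2 fold changes of 30 over 10 months were 0.66 ± 0.38 for Chrna1, 1.12 ± 0.39 for Chrnb1, 3.36 ± 0.92 for Chrnd, 5.29 ± 1.25 for Chrne and 0.24 ± 1.05 for Chrng, with edgeR adjusted p of 0.609, 0.337, 0.206, 0.118 and 0.980. DESeq2, which called 0.586% of all genes, called Chrne alone among the 5 (log2 fold change 5.75, DESeq2 adjusted p = 0.0225). Replicate 5 moved all of these values but that of Chrnb1. Without it Chrna1 was at -0.26, Chrne at -2.85, Chrnd at 1.71 and Chrng at 0.47. Their edgeR adjusted p were 0.769, 0.364, 0.524 and 0.919, while Chrnb1 was at 1.11 (edgeR adjusted p = 0.306). For Chrnb1 it was replicate 3, the library with 339 counts, that lowered the value most when left out, to 0.72.

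Whether the difference between regions depended on age was tested as an interaction. EdgeR called 0% of genes, among them none of the subunits, with 709 genes at an unadjusted p under 0.05, and DESeq2 called 0.0643%. The interaction was -0.53 ± 0.53 for Chrna1, -0.80 ± 0.54 for Chrnb1, -3.49 ± 1.10 for Chrnd, -5.22 ± 1.53 for Chrne and 0.33 ± 1.45 for Chrng, with edgeR adjusted p of 0.610 or more. Without 30m xNMJ replicate 5 it was 0.39 for Chrna1, -1.85 for Chrnd and 2.92 for Chrne, so the sign for Chrna1 and Chrne turned. With all libraries and the replicate number as a block it was 0.08 for Chrna1, -2.02 for Chrnd and -0.71 for Chrne. The sign for Chrna1 thus turned there too.

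The make-up of the receptor mRNA was then compared within libraries, since the subunits of a library share its depth and its captured area. Ratios were taken as differences of log2(TPM + 1) and compared with two-sided exact permutation tests over all assignments of 16 libraries to groups of 8, adjusted over 20 tests. The ratio of epsilon to gamma compares the subunits that set the adult and the fetal receptor apart. It was 7.95 ± 0.62 (SD, n = 8) in 10m NMJ and 0.14 ± 0.68 in 10m xNMJ (exact permutation, adjusted p = 0.000622). At 30 months it was 7.60 ± 0.83 in NMJ and 0.58 ± 2.36 in xNMJ (exact permutation, adjusted p = 0.000888). In plain TPM, epsilon exceeded gamma by 168 to 1735 times in the 6 libraries of 10m NMJ with more than 3 counts of both subunits, and by 90.2 to 1448 times in the 8 of 30m NMJ. In counts per kb of the longest transcript the ratios were lower, at 88.4 to 921 times and 47.5 to 918 times. The ratio did not differ between ages in NMJ beyond the spread (difference -0.35, exact permutation, adjusted p = 0.633). In xNMJ both subunits were near 0, so a value close to 0 there reflects the pseudocount of 1 more than a balance of the subunits, and replicate 5 alone had 6.31. In 10m NMJ the median of gamma, 0.70 TPM, was under the pseudocount too. The tests between regions thus mostly restate the abundance of Chrne in NMJ and are no evidence of a switch between regions.

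Set against alpha1, which both receptor forms hold, epsilon stood at 1.33 ± 0.22 in 10m NMJ and 1.25 ± 0.18 in 30m NMJ. This ratio was among the most even measured, between 1.87 and 2.93 in plain TPM at 10 months and between 1.98 and 2.74 at 30 months. In 30m xNMJ replicate 5 it was 2.44, inside the range of the NMJ libraries, whereas in the 15 other xNMJ libraries it was at most 0.272. The difference between regions was 3.69 at 10 months (exact permutation, adjusted p = 0.000622) and 3.16 at 30 months (exact permutation, adjusted p = 0.00155). Since Chrne was at 0 in 6 of 8 libraries of each xNMJ group, the size of this difference depends on the pseudocount. It was 6.13 and 5.60 with a pseudocount of 0.1, and 2.29 and 1.89 with 5, and it passed with each of them. Like those with a pseudocount of 1, these tests mostly restate that Chrne was near the floor in xNMJ.

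The beta1 subunit behaved the other way, taking a larger part beside alpha1 away from the junction. Its ratio to Chrna1 was -2.06 ± 0.27 in 10m NMJ against -0.09 ± 0.59 in 10m xNMJ, and -1.90 ± 0.12 in 30m NMJ against 0.39 ± 1.60 in 30m xNMJ. Both differences, -1.97 and -2.29, passed the test (exact permutation, adjusted p = 0.000622 for each). In plain TPM the median ratio of Chrnb1 to Chrna1 was 0.239 and 0.262 in NMJ but 1.02 and 1.14 in xNMJ. Not every library went this way at 30 months. In xNMJ replicate 2 had 0.155, below the NMJ range of 0.242 to 0.317, and replicate 5 had 0.311, inside it.

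For delta and gamma the ratio to alpha1 could not be read across regions. That of delta was -2.69 ± 0.50 in 10m NMJ and -2.63 ± 0.28 in 10m xNMJ (difference -0.07, exact permutation, adjusted p = 0.833), and at 30 months the difference was -0.41 (exact permutation, adjusted p = 0.5), but its sign turned with the pseudocount because Chrnd was at or near 0 in xNMJ. Within NMJ the plain ratio had a median of 0.161 at 10 months and 0.144 at 30 months. Gamma to alpha1 was -6.63 ± 0.69 in 10m NMJ and -2.50 ± 0.46 in 10m xNMJ, and -6.35 ± 0.86 against -2.49 ± 1.27 at 30 months, but in each xNMJ group 2 of 8 libraries had both genes over 3 counts, so the xNMJ values mostly carry the pseudocount. The plain ratio had medians of 0.00354 in NMJ and 0.00564 in xNMJ at 10 months, and of 0.00577 and 0.00430 at 30 months, so its direction turned between the ages. No ratio passed the test between ages in either region, with adjusted p from the exact permutation tests of 0.325 or more. A lack of change was not shown by this.

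**Figure D3:**
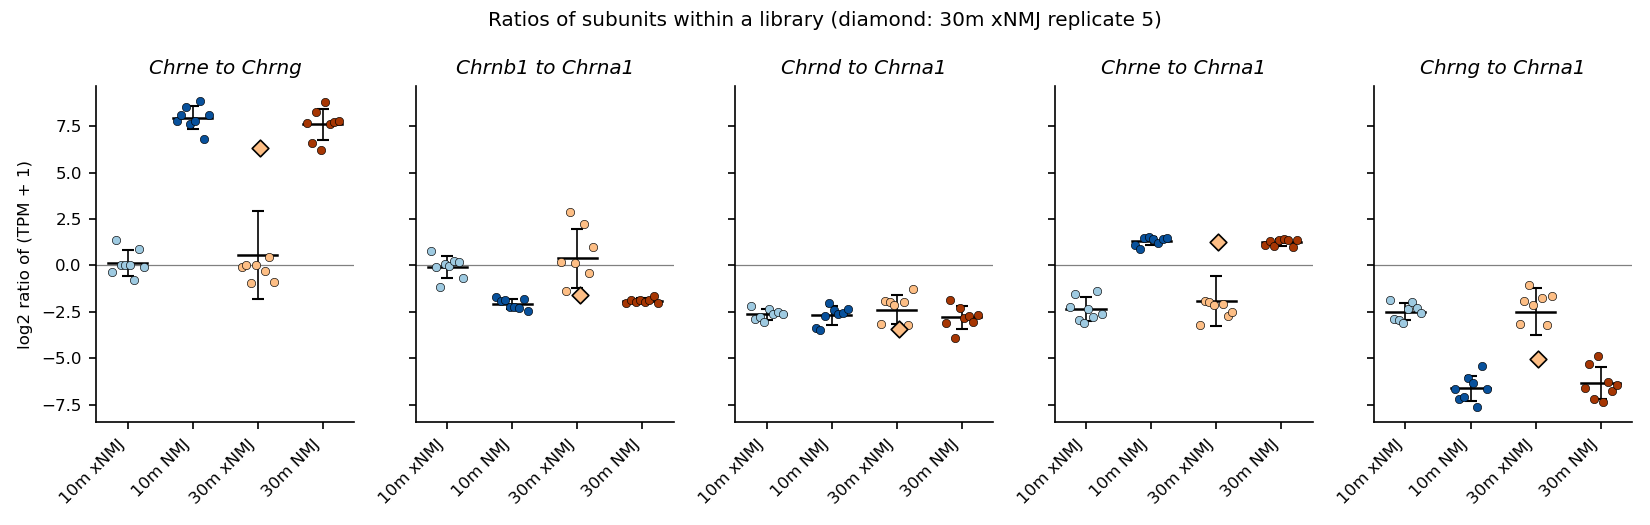
Log2 ratio of (TPM + 1) for epsilon to gamma and for each of the other subunits to alpha1 in every library, 1 panel per ratio. Points are libraries, bars the mean ± SD of 8, and the diamond is 30m xNMJ replicate 5. The epsilon to alpha1 ratio of that library, 1.26, lies among those of the NMJ groups.

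Within a group, subunit levels were ordered with exact sign-flip permutation tests over the 8 libraries, adjusted over 40 pairs, where the smallest p possible is 0.00781. In NMJ the order in TPM was Chrne, Chrna1, Chrnb1, Chrnd and Chrng at both ages. Each neighbour differed from the next in all 8 libraries (exact permutation, adjusted p = 0.0108), except Chrnb1 and Chrnd in 10m NMJ, which differed by 0.63 ± 0.72 on the log2 scale in 6 of 8 libraries (exact permutation, adjusted p = 0.0684). In xNMJ Chrna1 and Chrnb1 could not be put in order (0.09 ± 0.59 at 10 months and -0.39 ± 1.60 at 30 months; exact permutation, adjusted p = 0.765 and 0.598). Nor could Chrnd, Chrne and Chrng, which lay below both, with the exception of Chrnb1 against Chrne at 30 months (2.30 ± 2.48, exact permutation, adjusted p = 0.0605).

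In 10m NMJ, Chrne made up 64.3% ± 3.21 (SD, n = 8) of the summed TPM of the 5 subunits, Chrna1 25.6% ± 2.80, Chrnb1 6.15% ± 1.55, Chrnd 3.92% ± 1.03 and Chrng 0.127% ± 0.130. In 30m NMJ the shares were 62.6% ± 2.69 for Chrne, 26.3% ± 2.34 for Chrna1, 6.99% ± 1.02 for Chrnb1, 3.89% ± 1.44 for Chrnd and 0.241% ± 0.224 for Chrng. In 10m xNMJ the sum was shared mostly by Chrna1 with 49.7% ± 12.7 and Chrnb1 with 45.7% ± 11.3. In 30m xNMJ they held 39.0% ± 25.3 and 50.3% ± 29.1, and in replicate 5 Chrne alone held 64.0%.

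The high share of Chrne depended in part on the length used. Lengths behind the TPM were taken from the counts and TPM of the same library, relative to Chrna1 at its 4386 nt. That of Chrne was 845 nt in the median library of 10m NMJ and 850.4 nt in that of 30m NMJ. Its longest protein-coding transcript has 1616 nt. The length of Chrna1 is thus fixed and is no check on that of Chrne. With counts per kb of the longest transcript instead, Chrne held 49.0% and Chrna1 36.6% of the sum in 10m NMJ, and Chrne 47.6% and Chrna1 37.2% in 30m NMJ. Chrne then remained above Chrna1, by 0.42 on the log2 scale in 7 of 8 libraries at 10 months (exact permutation, adjusted p = 0.0208) and by 0.35 in 8 of 8 at 30 months (exact permutation, adjusted p = 0.0112). Why the length behind the TPM of Chrne is short was not tested. Of 31-base words in the protein-coding transcripts, 3.31% of those of Chrna1 and 0.332% of those of Chrnd also occur in other genes, and none of those of Chrnb1, Chrne and Chrng do.

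**Figure D4:**
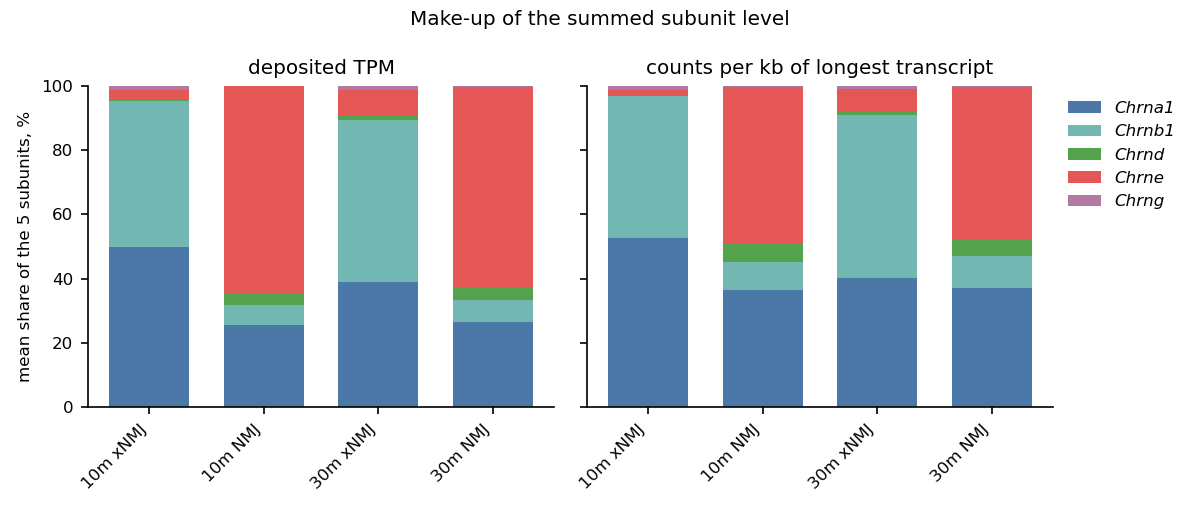
Mean share of each subunit in the summed level of the 5, in percent, for the 4 groups of 8 libraries, from the deposited TPM and from counts per kb of the longest transcript. Chrne holds 64.3% in 10m NMJ in TPM and 49.0% per kb.

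Among libraries of the same NMJ group the subunits varied together in part. Of 20 relations tested over 8 libraries, 14 had a positive Pearson r, and the range was -0.621 to 0.951. Chrnd and Chrne in 10m NMJ had r = 0.951 (exact permutation, adjusted p = 0.0244) and Spearman's rho = 0.881 (exact permutation, adjusted p = 0.0724), and r was 0.866 without the 2 libraries farthest from the median. In 30m NMJ the same pair had r = 0.084, or 0.605 without 2 libraries. Chrna1 and Chrnb1 in 30m NMJ had rho = 0.929 (exact permutation, adjusted p = 0.0446) and r = 0.865 (exact permutation, adjusted p = 0.0501), or 0.819 without 2 libraries. The difference between ages in these relations was not tested.

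The genes most like each subunit over the 32 libraries were found by Pearson's r of log2 CPM, as a description, since all libraries share the split into regions. For Chrne they were Crym (0.985), Prkar1a (0.985) and Cited1 (0.983), and the same 3 genes led after the mean of each group was subtracted, with Cited1 at 0.874, Crym at 0.852 and Prkar1a at 0.841. For Chrna1 they were Prkar1a (0.971), Hs6st2 (0.970) and Crym (0.968), but after subtraction Tmem258 led with 0.724. For Chrnd they were Calcrl (0.975), Prkar1a (0.973) and Crym (0.969), and after subtraction Gprc5c led with 0.734. Chrnb1 had other neighbours, Serinc3 (0.909), Lama2 (0.901) and Trf (0.888), with Tmem63a at 0.844 after subtraction. For Chrng the values were lower, with Ifitm10 and Col19a1 at 0.750, and Dhx34 at 0.730 after subtraction.

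**Figure D5:**
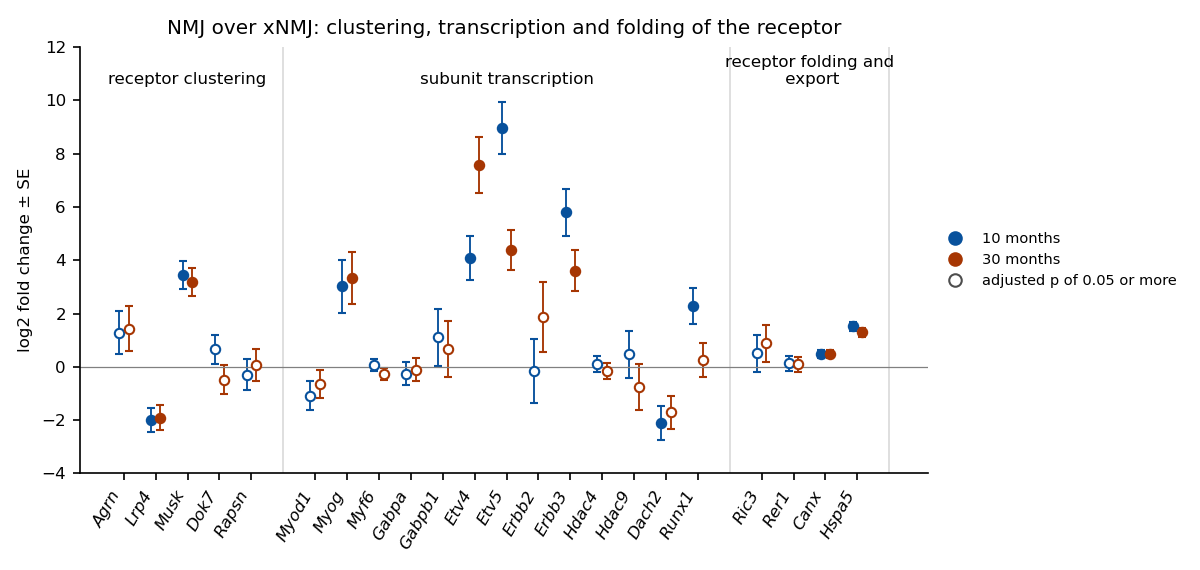
Log2 fold change ± SE of NMJ over xNMJ at 10 months and at 30 months, with all libraries, for genes of receptor clustering, subunit transcription and receptor folding. Open symbols have an edgeR adjusted p of 0.05 or more. Etv5 at 8.95 is the highest at 10 months, and of the genes that passed then, Lrp4 and Dach2 lie below 0.

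Genes that act on the receptor were read from lists, with 5.05% of all genes called lower in NMJ at 10 months and 4.25% at 30 months beside the shares called higher above. Clustering of receptors is driven by agrin from the nerve through Lrp4 and the kinase MuSK, with Dok7 and rapsyn inside the fibre. Of these 5 genes, 1 rose and 1 fell at each age. Musk had 21.5 to 73.7 CPM in the 10m NMJ libraries and no more than 8.94 CPM in those of 10m xNMJ, and it rose by 3.45 ± 0.53 (edgeR adjusted p = 2.06e-05) and by 3.18 ± 0.52 at 30 months (edgeR adjusted p = 7.25e-05). Lrp4 fell by 2.00 at 10 months (SE 0.46, edgeR adjusted p = 0.00287) and by 1.91 at 30 months (SE 0.46, edgeR adjusted p = 0.00502), from a mean of 3553 to 1312 CPM and of 3971 to 1710.0 CPM, with overlapping libraries. Agrn, Dok7 and Rapsn did not pass, with log2 fold changes of 1.28, 0.66 and -0.29 at 10 months.

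Among 15 genes known to act on subunit transcription, 13 were tested, of which 5 rose and 1 fell at 10 months and 4 rose at 30 months. Etv5, an ETS factor gene, had 301 to 637 CPM in the 10m NMJ libraries but no more than 2.05 CPM in those of 10m xNMJ, and it rose by 8.95 ± 0.97 (edgeR adjusted p = 5.26e-08). At 30 months it rose by 4.38 ± 0.75 (edgeR adjusted p = 1.18e-04), or by 6.31 without 30m xNMJ replicate 5, whose 93.8 CPM was the highest of its group. The ETS factor gene Etv4 rose by 4.09 ± 0.83 at 10 months (edgeR adjusted p = 7.71e-04) and by 7.58 ± 1.04 at 30 months (edgeR adjusted p = 4.97e-06). The second value rests on 3 counts in 30m xNMJ, all of them in replicate 5, and the pooled ratio was 303 with a 95% counting interval of 103 to 1470. Gabpa, another ETS factor gene, had -0.26 ± 0.43 and -0.11 ± 0.43. Erbb3, a receptor for neuregulin, rose by 5.79 ± 0.89 (edgeR adjusted p = 1.95e-05) and 3.60 ± 0.77 (edgeR adjusted p = 0.00164). Replicate 5 held 45 of the 61 Erbb3 counts of 30m xNMJ, and without it the 30-month value was 4.60 ± 0.81 (edgeR adjusted p = 1.62e-04).

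The myogenic factor gene Myog rose by 3.02 ± 0.99 at 10 months (edgeR adjusted p = 0.0418) and 3.33 ± 0.97 at 30 months (edgeR adjusted p = 0.0228). Its means in xNMJ were 0.255 and 0.388 CPM. The 10-month value of Myog rests on 10 counts in 10m xNMJ, where 6 of 8 libraries held 0 and the highest had 1.67 CPM. Myod1 did not pass (-1.09 ± 0.54 and -0.66 ± 0.53). Runx1 rose at 10 months (2.29 ± 0.69, edgeR adjusted p = 0.0233) and had 0.25 ± 0.64 at 30 months. Dach2, a repressor in innervated muscle, fell by 2.12 at 10 months (SE 0.63, edgeR adjusted p = 0.0221), and did not pass with library totals (-1.56, edgeR adjusted p = 0.0734). For age in xNMJ 1 gene of the list was called, Etv5 (4.61 ± 0.87, edgeR adjusted p = 0.0309), and not without replicate 5 (2.67, edgeR adjusted p = 0.104).

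Of 4 folding and export genes tested, 2 rose at each age, Hspa5, an endoplasmic reticulum chaperone, by 1.52 ± 0.17 (edgeR adjusted p = 1.22e-07) and 1.29 ± 0.17 (edgeR adjusted p = 2.99e-06), and the chaperone gene Canx by 0.47 ± 0.16 (edgeR adjusted p = 0.0458) and 0.49 ± 0.16 (edgeR adjusted p = 0.0476), the last not without replicate 5 (0.41, edgeR adjusted p = 0.0886). Of 11 other nicotinic subunits, 4 were tested and none was called, with Chrna10 at means of 12.5 CPM away from the junction and 9.08 CPM at it in mice of 10 months. Of 9 genes that denervation induces, 7 were tested. At 10 months 3 rose, Ncam1 by 4.43 ± 0.43 (edgeR adjusted p = 5.12e-09), Myog and Runx1, and at 30 months 2 rose, Ncam1 by 3.61 ± 0.41 (edgeR adjusted p = 2.00e-07) and Myog. Replicate 5 held 268 of the 462 Ncam1 counts of 30m xNMJ, and without it Ncam1 rose by 4.08 ± 0.39 (edgeR adjusted p = 4.65e-09). Myh8, a developmental myosin, fell by 0.77 at 10 months (SE 0.18, edgeR adjusted p = 0.0037), but not with library totals (-0.22, edgeR adjusted p = 0.42). None of the 7 was called for age in either region.

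Markers of other cells moved with the regions. All 4 Schwann cell genes analysed rose at both ages, and their summed level was 159.9 CPM in NMJ against 3.98 CPM in xNMJ at 10 months, and 104.5 CPM against 3.59 CPM at 30 months (1.61 CPM without 30m xNMJ replicate 5), with Mbp the most abundant of the 4 and Sox10 at 0 in 6 of 8 libraries of 10m xNMJ. Of 3 genes of fibro-adipogenic progenitors 2 rose at each age, Dcn and Pdgfra, and the sum was 1146 CPM against 118 CPM and 1099 CPM against 117 CPM. Of 4 macrophage genes 2 rose at 10 months and 1 at 30 months, with sums of 69.8 against 6.93 CPM and 43.2 against 11.2 CPM (5.38 CPM without 30m xNMJ replicate 2). The macrophage sum in 10m NMJ was uneven, with a median of 52.0 CPM and a highest library of 222 CPM. With library totals all 4 macrophage genes and all 3 of fibro-adipogenic progenitors rose at 10 months. Among all genes tested, 2659 were then called higher and 210 lower at 10 months, against 909 and 706 with TMM factors. The median log2 fold change of all genes was 0.56 with library totals and 0.003 with TMM factors. The part of this general shift in the marker calls was not tested. Motor neuron mRNA was close to the floor in all groups, with Chat at a mean under 1 CPM and Slc5a7 at 0 in every NMJ library. Endothelial genes (0 of 4 at 10 months and 1 lower at 30 months), mural cell genes (0 of 3 and 1 lower) and muscle stem cell genes (0 of 2 tested) were not higher in NMJ, and the 2 lower calls, Cdh5 and Rgs5, were lost with library totals (edgeR adjusted p = 0.165 and 0.580). Genes of the fibre itself were abundant in every group, with summed means of 92590 CPM in xNMJ and 79270 CPM in NMJ at 10 months and 86560 and 79060 CPM at 30 months. Of these 6 genes 4 were lower in NMJ at each age with TMM factors, and none with library totals. The sum of the 5 subunits was 1128 ± 275 CPM (SD) against 29.1 ± 9.60 CPM between NMJ and xNMJ at 10 months, and 1230.0 ± 261 CPM against 61.0 ± 76.1 CPM at 30 months (34.5 ± 14.7 CPM in xNMJ without replicate 5), and the part of these cell types in the subunit levels was not tested.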

How the data were processed

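RNA-seq libraries were made by the authors with the SMART-Seq v4 kit from laser-captured TA regions, in 4 groups of 8 libraries taken from the sample labels. Single-end reads were trimmed by the authors with Cutadapt 1.9.1 and pseudoaligned with kallisto 0.43.1 to protein-coding transcripts of GRCm38. Reads shared by several transcripts were split evenly among them and transcripts were summed per gene, without use of strand, and the authors deposited the result as whole-number counts, not normalised. For the deposited TPM, the authors scaled these assignments by transcript length and library total. The choice of these 5 genes and of the gene lists was made with earlier results of these data known.

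Counts were analysed with edgeR 4.0.16 (R 4.3.3; TMM factors, at least 1 CPM in at least 8 libraries, quasi-likelihood fit of the 4 groups together, Benjamini-Hochberg adjustment over 13990 genes, threshold 0.05). Regions were compared at either age, ages were compared in either region, and the interaction was tested, so that comparisons share libraries. The SE of a log2 fold change is its size divided by the square root of F, an approximation. Levels of different genes were compared in TPM with a pseudocount of 1, by two-sided exact permutation tests over libraries (Python 3.11.15, numpy 2.4.6), and in counts per kb of the longest protein-coding transcript of GENCODE M21. Summed CPM of lists are of the library total without TMM factors. Pooled ratios have 95% counting intervals, and the floor was 3 counts.

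Genes named are the 5 subunits, those of each list that passed or were among the 4 with the smallest p in any of the comparisons, and the 3 genes most like each subunit. Gabpa and Slc5a7 fall outside this rule and were chosen after their values were seen. Alternatives were the Wald test of DESeq2 1.42.0, DESeq2 size factors, library totals, no filter, only the groups compared, the replicate number as a block, insert size as a covariate, thinning to the smallest library, other pseudocounts and units, and leaving out each library. The length per kb, the library totals and the refits of list genes were chosen after seeing the data. Library totals and insert sizes did not pass a test between regions after adjustment over 8 tests (exact permutation, adjusted p = 0.104 or more). A promoter entry for Chrnd was not used here, and of the lists Myh3 and Slc18a3 were not analysed here and 2 Schwann cell genes are not reported here.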

Additional observations from a re-analysis of the deposited data

Results flagged for a closer look

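In 40 sets of 8 libraries (5 subunit levels and 5 ratios in 4 groups), 5 had a highest or lowest library far from the rest. The rate for chance was taken as about 1 in 20. The ratios are built from the levels, so the sets are not independent and the 5 cannot be set against that rate. In 4 of the 5 it was 30m xNMJ replicate 5. Its log2(TPM + 1) was 5.05 for Chrna1, next to 3.23 in the library closest to it, and 6.31 for Chrne, next to 0.47. It held 0 counts of Chrng, so its log2 ratio of Chrne to Chrng equals its level of Chrne, 6.31, next to 0.47. Its log2 ratio of Chrne to Chrna1 was 1.26, next to -1.91. The log2 ratio of Chrnb1 to Chrna1 in 30m NMJ replicate 7 was -1.65, the highest of its group, next to -1.85.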

How the results depend on the processing

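The calls of Chrna1, Chrnb1, Chrnd and Chrne between regions held at both ages in every alternative that gave a value, with each of the 32 libraries left out included. Of the alternative values computed, 963 of 981 log2 fold changes, 393 of 418 ratios and 84 of 90 orders kept their direction and side of the threshold. Most of the fold changes and ratios come from leaving out 1 library. For fold changes these include comparisons that the library was no part of, so the shares do not measure robustness. The number of subunits called between regions rose by Chrng at 30 months with library totals and without 30m xNMJ replicate 8. It rose in the same way at 10 months without 10m xNMJ replicate 6. For age in xNMJ it rose with DESeq2. The cause of the changes was not tested. With library totals in place of TMM factors the median log2 fold change of all genes was 0.56 at 10 months (0.003 with TMM) and 0.61 at 30 months (-0.014 with TMM), with 2659 genes called higher and 210 lower at 10 months (909 and 706 with TMM) and 2687 higher and 76 lower at 30 months (700 and 595 with TMM). Chrng at 30 months was then called (3.23). DESeq2 called 1 subunit, Chrne, for age in xNMJ, where edgeR called 0, and with insert size as a covariate Chrne for age in NMJ was -0.36 in place of 0.07.

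The region difference of the Chrnd to Chrna1 ratio was -0.07 at 10 months, but 2.57 with a pseudocount of 0.1, -1.45 with 5 and 1.14 in CPM. At 30 months it was -0.41, but 1.78, -1.56 and 0.53. With a pseudocount of 5 the age differences of Chrnd to Chrna1 in xNMJ and of Chrng to Chrna1 in NMJ and xNMJ were -0.010, -0.044 and -0.086 in place of 0.25, 0.27 and 0.006, and the last was -0.039 in CPM and -0.048 per kb. Chrnb1 over Chrne in 30m xNMJ passed with a pseudocount of 0.1 (4.69), per kb (2.13) and without replicate 5 (3.04).

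When each library was left out in turn, the age difference in xNMJ ranged from -0.26 to 0.80 for Chrna1, from -2.85 to 6.31 for Chrne and from -0.61 to 1.19 for Chrng. In NMJ it ranged from -0.28 to 0.009 for Chrnd, from -0.13 to 0.15 for Chrne and from -0.012 to 0.87 for Chrng. The interaction ranged from -0.67 to 0.39 for Chrna1, from -6.24 to 2.92 for Chrne and from -0.61 to 1.18 for Chrng. Chrng between regions lay between 2.03 and 3.27 at 10 months, and between 2.07 and 3.52 at 30 months. Among age differences of ratios in xNMJ, Chrne to Chrng ranged from -0.38 to 0.65, Chrne to Chrna1 from -0.009 to 0.63 and Chrng to Chrna1 from -0.20 to 0.37. Chrnd to Chrna1 ranged from -0.24 to 0.056 for age in NMJ and from -0.16 to 0.045 between regions at 10 months. Without 30m xNMJ replicate 5, Chrnd over Chrne, Chrnd over Chrng and Chrne over Chrng in 30m xNMJ were 0.14, -0.11 and -0.24, in place of -0.47, 0.11 and 0.58.

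Among the 16 pairs of same-numbered NMJ and xNMJ libraries the deviations had r from -0.0175 to 0.366, with 5 over 0.1, and 8 correlated best with their own number, which is a hint from the data and not from the design. Whether the numbers mark shared animals is not given in the sources used here. With the replicate block no subunit's call changed, but Chrne between regions at 30 months was 9.17 in place of 4.51, and the interaction was -0.71 for Chrne, -2.02 for Chrnd and 0.08 for Chrna1, in place of -5.22, -3.49 and -0.53. With counts thinned to the smallest library Chrng was 1.39 between regions at 10 months and 1.73 for age in NMJ, in place of 2.33 and 0.57, and its interaction was 1.37 in place of 0.33. Fitting only the groups compared dropped Chrng at 10 months and Chrnd, Chrne and Chrng for age in xNMJ. In xNMJ 1 library had both epsilon and gamma over 3 counts, 10m xNMJ replicate 7 with a ratio of 4.65 in TPM, so the ratio was not compared with xNMJ in such libraries. Depth limits Chrnd, Chrne and Chrng in xNMJ and Chrng in NMJ, where few counts set the size of a fold change.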
